A study of Mus musculus with 4 samples.

Results

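The Ifi200 cluster is a family of interferon-inducible PYHIN genes that lie next to each other on mouse chromosome 1. The genes were chosen by name from an earlier look at the same libraries: Aim2, Ifi203, Ifi204, Ifi207, Ifi208, Ifi209, Ifi211, Ifi213, Mnda and Mndal. Of the 10 names, 9 had a row in the deposited table of 23552 genes. Mnda had no row of its own, and RefSeq lists the name as a synonym of Ifi211, so it is covered by that row. Because the difference between the groups was known when the genes were chosen, their values are given as a description without p-values, and calls from the fit across all genes are given only as counts with the genes they cover.

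RNA-Seq libraries were made from c-Kit+ leukemic cells from the bone marrow of C57BL/6 mice with acute myeloid leukemia (AML) induced by MLL-AF9, a fusion oncogene carried by the cells of both groups. Control cells overexpressed eGFP alone (control-eGFP, libraries named control replicates 3 and 4). SUV-OE cells overexpressed Suv39h1, an enzyme that trimethylates histone H3 at lysine 9, together with eGFP (Suv39h1-eGFP, libraries named SUV-OE replicates 2 and 3). The cells came from moribund recipients, and the labels give no age or sex. The study's methods name female C57BL/6J mice, all of 1 young adult age, for its experiments in general. All 4 libraries carry the label RNAseq-batch 2. By the study's methods, leukemic cells were infected with a viral MSCV construct, sorted for eGFP and transplanted into sublethally irradiated mice, so the construct was carried by the transplanted leukemic cells and not by the host. The labels do not say whether the libraries of a group came from separate animals, so the spread between them may be technical. Reads recovered from the deposited values ranged from 19894165 to 23330836 per library. Suv39h1 had an FPKM (fragments per kilobase of exon, scaled to the mapped reads of the library) of 12.4 in both control libraries and of 75.3 and 81.2 in SUV-OE. Kit was present in every library, with an FPKM of 19.2 to 28.6.

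PYHIN proteins carry an N-terminal pyrin domain, through which they bind other pyrin proteins, and most of them carry a C-terminal HIN domain that binds DNA. AIM2 senses double-stranded DNA in the cytosol and recruits the adaptor ASC and caspase-1 into an inflammasome, which leads to cleavage of gasdermin D and pyroptosis. The other mouse family members are best known as interferon-inducible nuclear or cytosolic proteins of hematopoietic cells, p204 (Ifi204) among them as a DNA sensor and a factor in myeloid differentiation. Most of these genes are induced through the interferon-stimulated response element (ISRE), which is bound by STAT and IRF factors. The family has expanded recently in mice, so its members resemble each other closely in sequence.

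Ifi213, Mndal, Ifi209 and Ifi203 had clearly higher levels in SUV-OE, from 5.61 to 371 times those of control, and Aim2, which made up most of the cluster's expression in control, differed little. All 9 genes had a higher mean FPKM in SUV-OE. In 8 of the 9, the lower SUV-OE value exceeded the higher control value, a pattern that 25.7% of all genes in the table showed. Of the 9 genes, 6 reached a mean FPKM of 0.5 over the 4 libraries, and 3 of these 6 (Ifi213, Ifi203 and Ifi204) did so only through their SUV-OE values. With limma, 3 of the 6, Ifi213, Mndal and Ifi209, passed the thresholds for a differentially expressed gene (DEG), an absolute difference of at least 1 on the log2(FPKM + 1) scale and, after Benjamini-Hochberg adjustment, a p-value under 0.05. Of all 13736 genes tested, 1.22% were DEGs and 0.815% were DEGs higher in SUV-OE. The choice of the genes rested on this same contrast, so nothing is read from their count. Without the filter on expression limma gave 0 DEGs over all genes, with the differences of the cluster the same. With any 1 library left out it also gave 0, in a design of 2 libraries against 1 that called no gene at all, while the differences stayed at 4.07 to 4.11 for Ifi213, 2.16 to 2.64 for Mndal and 1.73 to 2.04 for Ifi209. On the recovered reads limma-voom called 4 of 8 (Ifi203 in addition), beside 4.67% of all genes. The median difference over the 9 genes was 0.43 on the log2(FPKM + 1) scale, beside 0.01 over all genes of the table. On this scale the change of a gene with low values comes out too small. In a bulk sample, fewer cells of a type and less RNA per cell cannot be told apart.

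**Figure D1:**
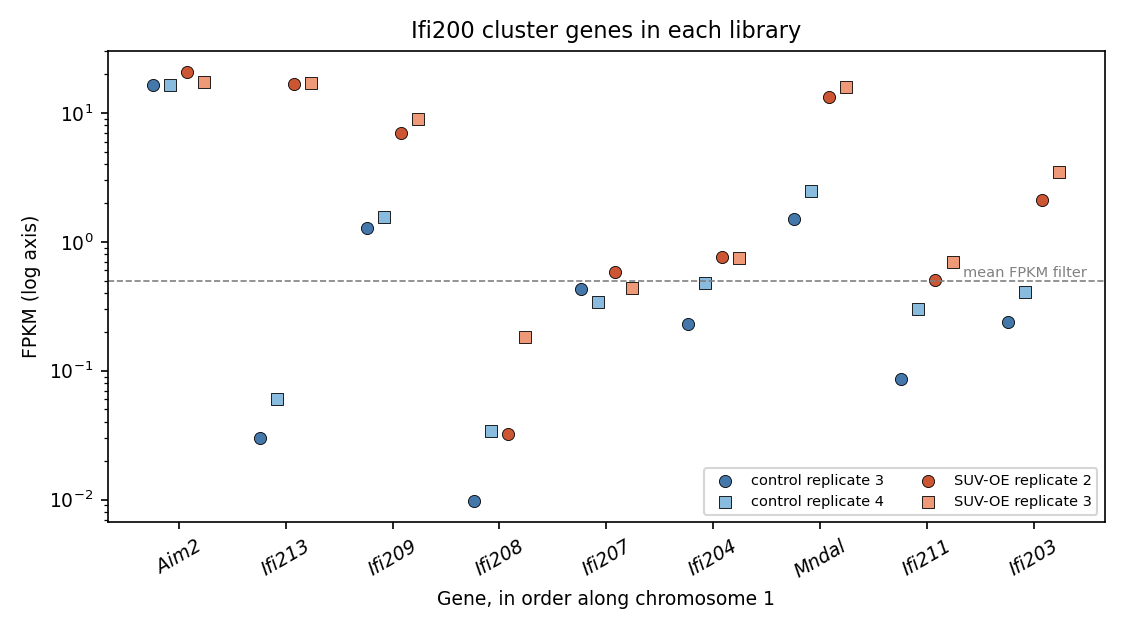
FPKM (log axis) of the 9 genes of the Ifi200 cluster, in their order along chromosome 1, in 2 control libraries (blue) and 2 SUV-OE libraries (orange), 1 point per library. Ifi213 sat below 0.1 in control and near 17 in SUV-OE, whereas the libraries of Aim2 sat between 16.4 and 20.7. The dashed line marks an FPKM of 0.5.

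Ifi213 (ENSMUSG00000073491; chromosome 1, 173566283 to 173599274 in mm10, minus strand) showed the largest difference of the cluster. It encodes a pyrin-domain protein of the PYHIN family whose function is little known. Control replicates 3 and 4 had 0.0301 and 0.0607 FPKM, and SUV-OE replicates 2 and 3 had 16.7 and 16.9 FPKM. These values stood for 4, 7, 2026 and 2060 recovered reads. Ifi213 was thus close to the detection limit in control, where 3 reads on this gene corresponded to an FPKM of 0.0225 to 0.026, and nearly equal in the SUV-OE libraries. The ratio of the group means was 371, and the ratio of the reads, scaled for depth, was 380 with a 95% exact interval of 212 to 762 that covers counting error only. On the log2(FPKM + 1) scale the difference was 4.09 (standard error 0.12), the second highest of all 23552 genes. Without any filter on expression, 17.9% of genes had a lower mean than Ifi213 in control, and 84.7% did in SUV-OE.

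Mndal (ENSMUSG00000090272; 173849126 to 173942491, minus strand), a HIN-domain protein related to the myeloid nuclear differentiation antigen, came next in level in SUV-OE. It had 1.51 and 2.50 FPKM in the controls, against 13.4 and 15.9 FPKM under SUV-OE. The groups did not overlap, and the ratio of their means was 7.31 (difference of 2.40 on the log2(FPKM + 1) scale, standard error 0.21). Ifi209 (ENSMUSG00000043263; 173630917 to 173647928, plus strand), another member with pyrin and HIN domains, had 1.29 and 1.55 FPKM in the controls, against 7.04 and 8.91 FPKM under SUV-OE. Its ratio was 5.61 and its difference 1.88 (standard error 0.16). In control replicates 3 and 4, Mndal had 101 and 145 reads and Ifi209 had 89 and 93, more than Ifi213.

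Ifi203 (ENSMUSG00000039997; 173920407 to 173942672, minus strand), one of the first p200 family genes described in mice, was low in control and was the fifth gene of the cluster in SUV-OE. It had 0.238 and 0.407 FPKM in the controls, against 2.10 and 3.46 FPKM under SUV-OE. The ratio of the means was 8.64, higher than those of Mndal and Ifi209, while its difference on the log2(FPKM + 1) scale was smaller, 1.5 (standard error 0.23). In the annotation the Mndal gene spans Ifi211 and overlaps most of Ifi203, all on the same strand. Mndal and Ifi203 share only 37 exon bases, against 3591 Mndal and 6669 Ifi203 exon bases outside them.

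Ifi204 (ENSMUSG00000073489; 173747293 to 173766943, minus strand), which encodes p204, had 0.231 and 0.483 FPKM in the controls, against 0.760 and 0.742 FPKM under SUV-OE. The groups did not overlap, at a ratio of 2.10 and a difference of 0.37 (standard error 0.19), which was 0.24 without control replicate 3. Ifi211 (ENSMUSG00000026536; 173896345 to 173913046, minus strand), the row that RefSeq also calls Mnda, had 0.0864 and 0.299 FPKM in the controls, against 0.505 and 0.693 FPKM under SUV-OE, from 3, 9, 16 and 22 reads. Both rows rested on few reads.

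Ifi207 (ENSMUSG00000073490; 173723427 to 173741747, minus strand), a member with pyrin and HIN domains, had 0.428 and 0.340 FPKM in the controls, against 0.583 and 0.436 FPKM under SUV-OE. The groups were separated by a single narrow step, from 0.428 to 0.436, and the ratio of the reads was 1.31 with a 95% exact interval of 0.891 to 1.95, which includes 1 and covers counting error only. Its difference of 0.12 was 0.05 without SUV-OE replicate 2, 0.08 without control replicate 4 and 0.19 without SUV-OE replicate 3. Ifi208 (ENSMUSG00000066677; 173673675 to 173698395, plus strand), a pyrin-domain member, was the lowest of the cluster in both groups. Control replicates 3 and 4 gave 1 and 3 reads, and SUV-OE replicates 2 and 3 gave 3 and 17. It was the only gene of the 9 whose groups overlapped, and its higher mean in SUV-OE rested on SUV-OE replicate 3. With that library left out, its difference on the log2(FPKM + 1) scale went from 0.11 to 0.01.

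Aim2 (ENSMUSG00000037860; 173350879 to 173466040, plus strand) had 16.4 and 16.6 FPKM in the controls, against 20.7 and 17.4 FPKM under SUV-OE. The groups did not overlap, at a ratio of 1.16 and a difference of 0.19 (standard error 0.13), and leaving out 1 library at a time moved the difference between 0.07 and 0.31. Aim2 was the most highly expressed gene of the cluster in every library.

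The summed FPKM of the cluster was 20.2 and 22.2 in the controls, against 61.8 and 64.7 under SUV-OE. Without Aim2 the sums were 3.82, 5.67, 41.1 and 47.3, and the ratio of their group means was 9.31. Aim2 made up 81.1% and 74.5% of the sum in control and 33.5% and 26.9% in SUV-OE. Ifi213 went from 0.149% and 0.273% to 27.0% and 26.2%, and Mndal from 7.46% and 11.2% to 21.6% and 24.6%. FPKM is scaled by length, so the genes can be ranked within a library. In control the order of the means was Aim2, Mndal, Ifi209, Ifi207, Ifi204, Ifi203, Ifi211, Ifi213 and Ifi208, and from Mndal downwards the ranges of most neighbours in this order overlapped, with Ifi209 clear of Ifi207 and Ifi211 clear of Ifi213. In SUV-OE the order was Aim2, Ifi213, Mndal, Ifi209, Ifi203, Ifi204, Ifi211, Ifi207 and Ifi208, and the only neighbours whose ranges overlapped were Ifi211 and Ifi207.

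**Figure D2:**
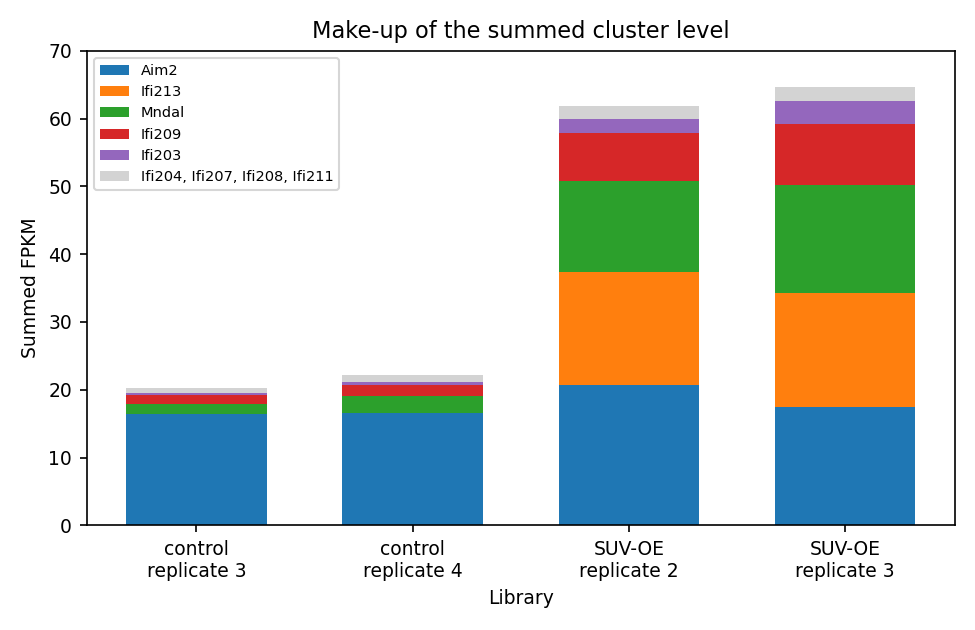
Summed FPKM of the Ifi200 cluster in each library, stacked by gene, on a linear axis from 0. The blue Aim2 segment is of similar height in all 4 bars (16.4 to 20.7), and the segments of Ifi213, Mndal, Ifi209 and Ifi203 account for most of the added height in SUV-OE.

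Libraries of 1 group also differed among themselves. Control replicate 4 was above control replicate 3 in 8 of the 9 genes, beside 49.9% of all genes tested. SUV-OE replicate 3 was above SUV-OE replicate 2 in 6 of the 9 genes, beside 50.2%.

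Reads of close relatives can be assigned to the wrong gene, and the study's methods do not say how reads matching several genes were counted. Of all 50-base stretches in the annotated transcripts of Ifi211, 72.8% also occurred in another gene, most often Ifi205 or Ifi204, and 46.4% of its 150-base stretches did. For Ifi209 the shares were 33.8% and 9.28%, nearly all of them with Ifi214, which had 0 reads in both controls but 6 and 7 under SUV-OE. For Ifi213 they were 15.6% and 0.223%, mostly with Ifi208, and for Mndal 19.6% and 1.61%. Aim2 shared only 0.628% of its 50-base stretches and no 150-base stretch. Ifi208 shared 20.8% and Ifi204 20.02% of their 50-base stretches. By shared stretches alone, values of Ifi211 are the most uncertain, followed by those of Ifi209, with the other relatives apart from Aim2 behind them. The reads of the relative matter as well, and those of Ifi214 were few. Ifi208 shared 18.1% of its 50-base stretches with Ifi213, which had 2026 and 2060 reads in SUV-OE against 3 and 17 for Ifi208. The values of Ifi208 are therefore uncertain too.

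RefSeq promoters (GRCm38.p6, 250 bases before each start) were on hand for 8 of the 9 genes, 10 promoters in all. They were searched on both strands for the ISRE core (GAAA, any 2 bases, GAAA) and for the interferon-gamma activated site (TTC, any 3 bases, GAA). The ISRE core was found in 7 of the 10 promoters and in 6 of the 8 genes, 35 to 73 bases before the start, compared with 3.44% of all 32851 promoters in the table. The interferon-gamma site was found in 0 of the 10, compared with 8.3% of all promoters. Several of these promoters are close copies of each other, so they are not independent cases. The 30-base windows around the ISRE core, or around the closest 10 bases to it in Ifi209, are shown to compare the element between genes, in order along the chromosome and 5′ to 3′ on the strand of the gene, with the 10 bases in capitals.
Ifi213 (chr1:173599326-173599355, minus strand): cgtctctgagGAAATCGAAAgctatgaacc
Ifi209 (chr1:173630770-173630799, plus strand): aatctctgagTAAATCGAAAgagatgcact
Ifi208 (chr1:173673597-173673626, plus strand): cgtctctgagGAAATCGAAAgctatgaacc
Ifi207 (chr1:173741831-173741860, minus strand): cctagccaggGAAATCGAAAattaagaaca
Mndal (chr1:173880204-173880233, minus strand): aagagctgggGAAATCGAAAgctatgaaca
Ifi211 (chr1:173913064-173913093, minus strand): caaagccaggGAAATTGAAAgctatgaacg
Ifi203 (chr1:173942508-173942537, minus strand): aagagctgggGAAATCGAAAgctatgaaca

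Counting from 1 at the first base of the element in Ifi213, Ifi209 differed by G1T and Ifi211 by C6T. Ifi209 therefore had no match to the searched letters, while its FPKM was among the 4 highest of the cluster in SUV-OE. Mndal has a second RefSeq start 229 bases further downstream, with a match on the opposite strand 54 bases before it, and the other start of Ifi203, 180 bases upstream, had no match. The promoter of Aim2 had no match either, and its closest 10 bases differed at 4 positions. A match describes letters in a window and not a bound site, and the absence of a match says only that these letters are not in it.

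The promoters of Ifi213 and Ifi208 were nearly the same. Over the 250 bases before the start, 233 of 235 aligned positions were identical (99.15%), and the 30-base windows above were the same in both. Their sequences upstream of every annotated start of each gene, 174 bases for Ifi213 (chr1:173599349-173599522, minus strand) and 213 bases for Ifi208 (chr1:173673415-173673627, plus strand), are shown because the levels of these genes differed so widely, and 172 of 174 aligned bases were identical.
Ifi213: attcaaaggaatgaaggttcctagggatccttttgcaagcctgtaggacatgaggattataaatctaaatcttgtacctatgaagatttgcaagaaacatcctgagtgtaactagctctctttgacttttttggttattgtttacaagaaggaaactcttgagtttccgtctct
Ifi208: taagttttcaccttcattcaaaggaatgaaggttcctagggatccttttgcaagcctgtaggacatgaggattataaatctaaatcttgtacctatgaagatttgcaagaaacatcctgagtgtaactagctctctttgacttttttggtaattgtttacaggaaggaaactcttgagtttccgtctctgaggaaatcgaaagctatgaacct

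The Ifi213 stretch ends before the ISRE core, because the outermost annotated start of Ifi213 lies upstream of that core. With these matching promoters, Ifi213 had an FPKM of 16.7 and 16.9 in SUV-OE and Ifi208 one of 0.0322 and 0.182. The promoters of Mndal and Ifi203 that carry the element were also alike, with 233 of 249 aligned positions identical (93.57%), and both genes had higher levels in SUV-OE, at ratios of 7.31 and 8.64. Those of Ifi207 and Ifi211 aligned over 247 positions with 216 identical (87.45%), and both genes were low in all libraries.

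The cluster spans 591.794 kb from Aim2 to Ifi203. Of 25 other genes in the table that lie within 1 Mb of its ends, 6 were tested, and all 6 lay on the side of Aim2. They were Pigm, Gm37145, Slamf9, Tagln2, Gm37125 and Dusp23. With limma, 0 of the 6 passed as DEGs, 0 had a p-value under 0.05 before adjustment (1.22% and 20.7% of all genes tested), and their differences ran from -0.41 to 0.12 on the log2(FPKM + 1) scale (lowest adjusted p = 0.385). Tagln2, an actin-binding protein gene and the highest of them, had 271 and 236 FPKM in the controls, against 252 and 265 FPKM under SUV-OE. Of the 19 genes that were too low to test, 11 had higher values in both SUV-OE libraries than in either control library, beside 25.7% of all genes in the table. Of these 11, 3 were the family relatives Ifi205, Ifi206 and Ifi214, and several others rested on a few reads. On the recovered reads, limma-voom called 0 of the 6.

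**Figure D3:**
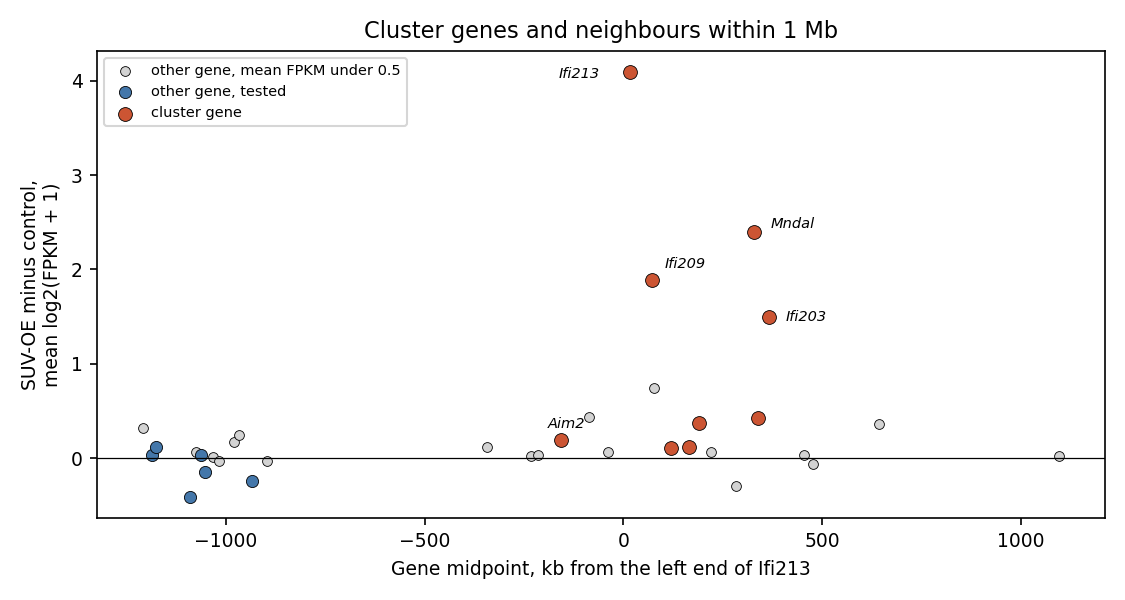
Difference between SUV-OE and control in mean log2(FPKM + 1) for genes of the cluster (orange), tested neighbours (blue) and neighbours with a mean FPKM under 0.5 (grey), against the distance of the gene's midpoint from the left end of Ifi213 in kb. The tested neighbours lie between -0.41 and 0.12, and the 4 highest points, Ifi213, Mndal, Ifi209 and Ifi203, are interspersed with cluster genes near 0.

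Of the other genes of the family listed for the locus, 4 were in the table and 0 reached the expression filter, so limma tested none of them. Ifi206, a pyrin-domain relative next to Aim2, had 3 and 5 reads in the controls against 26 and 23 under SUV-OE, and reached the limma-voom minimum of a mean of 10 reads only through SUV-OE. Ifi205 had 0 reads in control and 2 in each SUV-OE library. Ifi203-ps, a pseudogene, had an FPKM of 0, 0.110, 0.0521 and 0.156, with overlapping groups. No expression levels of Ifi202b, Pydc3, Pydc4 and Pydc5 are given here.

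The partners of AIM2 and other DNA sensors were counted against the shares of all genes, which were 1.22% for limma, 4.67% for limma-voom and 20.7% for an unadjusted p-value under 0.05. Lists of this size would hold few DEGs at those shares. Among 15 tested genes of the inflammasome and pyroptosis, 0 passed in either direction with limma, 2 had an unadjusted p-value under 0.05 and limma-voom called 0. Their median difference was 0.02, with 9 higher and 6 lower. Gsdmd, the pore-forming substrate of inflammatory caspases, had 61.9 and 64.9 FPKM in the controls, against 61.0 and 62.4 FPKM under SUV-OE. Ninj1, which mediates plasma membrane rupture, and Casp8, an apoptotic caspase that also cleaves gasdermins, had differences of -0.08 (adjusted p = 0.716) and 0.02 (adjusted p = 0.927). Of 14 tested genes of cytosolic DNA sensing, 0 passed with limma or limma-voom, 5 had an unadjusted p-value under 0.05 (1 higher and 4 lower, beside the same 20.7%) and the median difference was -0.11. Hmgb1, a chromatin protein that binds DNA, had 192 and 199 FPKM in the controls, against 142 and 154 FPKM under SUV-OE (adjusted p = 0.222), and Ddx41 and Tbk1, a helicase and a kinase of this pathway, had differences of -0.26 and -0.15 (adjusted p = 0.322 and 0.468).

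Among interferon receptors, JAK-STAT components and IRF factors, 1 of 22 tested genes was a DEG. This was Irf8, a transcription factor of monocyte, dendritic and B cell development. It had 5.22 and 5.01 FPKM in the controls, against 11.6 and 11.04 FPKM under SUV-OE, a difference of 1.01 (standard error 0.11, limma adjusted p = 0.0405). Of these 22 genes, 17 were higher and 5 lower, with a median of 0.26, and 14 had SUV-OE values wholly above control, beside 25.4% of all genes tested. Before adjustment 6 had a p-value under 0.05, all higher in SUV-OE, beside 20.7%. On the recovered reads limma-voom called 2 of 23, Irf8 and Irf4, beside 4.67%, with Irf4 at a log2 difference of 2.09 (adjusted p = 0.0417). The most highly expressed of them, the interferon-gamma receptor Ifngr1, the phosphatase gene Ptpn6 and the kinase gene Jak1, had differences of -0.31, -0.03 and 0.25 (adjusted p = 0.308, 0.905 and 0.305).

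Most classical interferon-stimulated genes outside the cluster also had higher means in SUV-OE. Of 43 tested, 41 had a higher and 2 a lower mean in SUV-OE, with a median of 0.47 on the log2(FPKM + 1) scale. With limma 0 of them passed as DEGs. Before adjustment, p was under 0.05 for 26 with a higher value in SUV-OE and for 1 with a lower one, Ifit2, beside 20.7% of all genes tested in either direction. The groups did not overlap and SUV-OE was higher in 30 of the 43, compared with 25.4% of all genes tested. On the recovered reads, limma-voom called 11 of 50, all higher in SUV-OE, beside 3.58% of all genes. The 3 with the highest level were B2m, the light chain of MHC class I (FPKM of 483, 802, 711 and 1112), Ifitm2, an antiviral membrane protein, and Ifi27. Their adjusted p-values were 0.498, 0.806 and 0.589, and their groups overlapped. No test compared this list with the cluster.

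**Figure D4:**
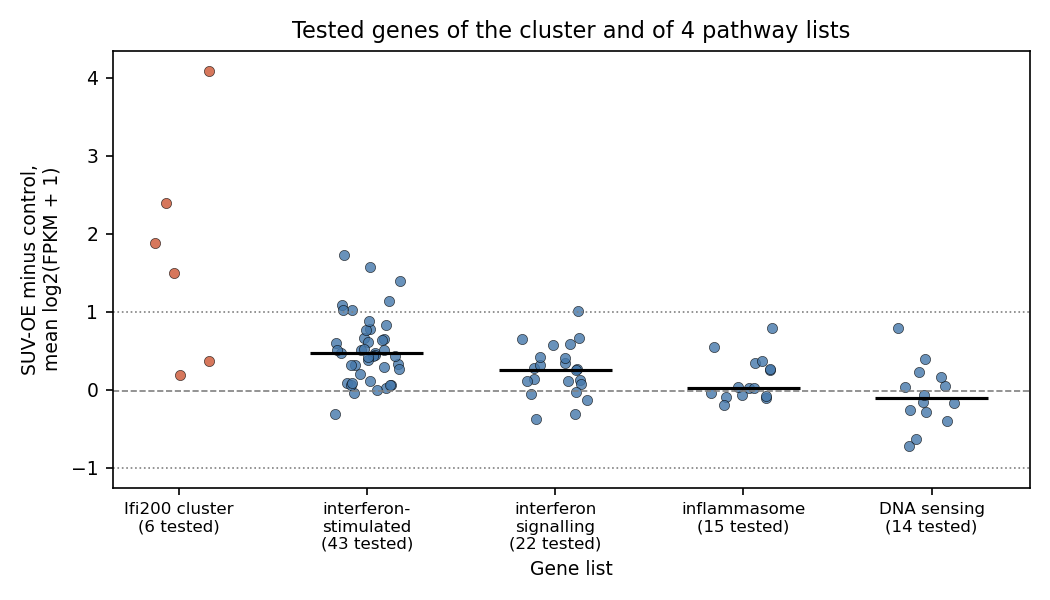
Difference between SUV-OE and control in mean log2(FPKM + 1) for the tested genes of the Ifi200 cluster (6 points, no median drawn because 3 of them passed the filter only through SUV-OE) and of 4 pathway lists, with a bar at the median of each list. The dashed line is the median of all genes tested (-0.02) and the dotted lines mark 1 and -1. The bar of the interferon-stimulated genes is at 0.47, and the highest of them lies at 1.72, below 3 genes of the cluster.

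Outside the cluster, the 5 genes whose pattern over the 4 libraries was nearest to that of Ifi213, by Euclidean distance of centred log2(FPKM + 1) values, were Gm13230 (a pseudogene on chromosome 4), Zfp971 (a zinc finger gene on chromosome 2), Gm26869 (a noncoding RNA gene on the opposite strand to Zfp971), Epcam (an epithelial adhesion molecule gene on chromosome 17) and Cyp2a5 (a cytochrome P450 gene on chromosome 7). Their distances were 0.24, 0.30, 0.30, 0.32 and 0.83. The nearest gene of the cluster, Mndal, stood at 1.73 and Ifi209 at 2.22. Epcam had 0.328 and 0.494 FPKM in the controls, against 18.6 and 18.4 FPKM under SUV-OE. Zfp971, at 4.75 and 5.39 against 81.4 and 86.2, was expressed in control as well, so likeness here refers to the size of the log2 step and not to the level.

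Summed levels of several marker lists of other cell types lay higher in SUV-OE too. The summed FPKM of 11 neutrophil markers was 991 and 2634 in the controls, against 6835 and 8299 under SUV-OE, with 10 of the 11 tested genes higher. With limma 1 of the 11, Ltf (lactoferrin), was a DEG, and limma-voom called 7 of 11, beside 1.22% and 4.67% of all genes. That of 12 B-lineage markers was 18.7, 28.3, 44.6 and 108, with 9 of 10 tested genes higher. With limma 0 of the 10 were DEGs while 9 had an unadjusted p-value under 0.05, and limma-voom called 5. Ms4a1, a marker of mature B cells, was at or near 0 in all libraries. The sums of the 12 monocyte and macrophage markers were 530, 892, 985 and 1159, with 7 of the 11 tested genes higher and 4 lower. The step between the groups rested on Lyz2, which had 101, 177, 570 and 703 FPKM. Ly6c2 and Vcam1 were among the lower genes. For the dendritic cell markers the sums were 1.19, 1.34, 4.96 and 3.37, and for the megakaryocyte markers 6.62, 12.9, 23.9 and 28.4. For the endothelial and stromal markers they were 17.7, 24.6, 72.6 and 65.7, most of it from Pecam1, a DEG. The mast cell and basophil markers (107, 163, 262 and 210) did not overlap between the groups. The erythroid markers (19.2, 142, 132 and 100) and the T and NK cell markers (73.7, 113, 77.7 and 83.9) did. Nearly all of the T and NK sums came from Nkg7 (73.0, 112, 75.5 and 82.3 FPKM). Cd8a and Ncr1 were at 0 in control. The 10 markers of leukemic progenitors summed to 843, 895, 830 and 896, with 3 of them wholly above and 4 wholly below control in SUV-OE. In every one of these lists control replicate 4 was above control replicate 3, as it was in 8 of the 9 genes of the cluster. The part of other cell types in the values of the cluster was not tested.

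**Figure D5:**
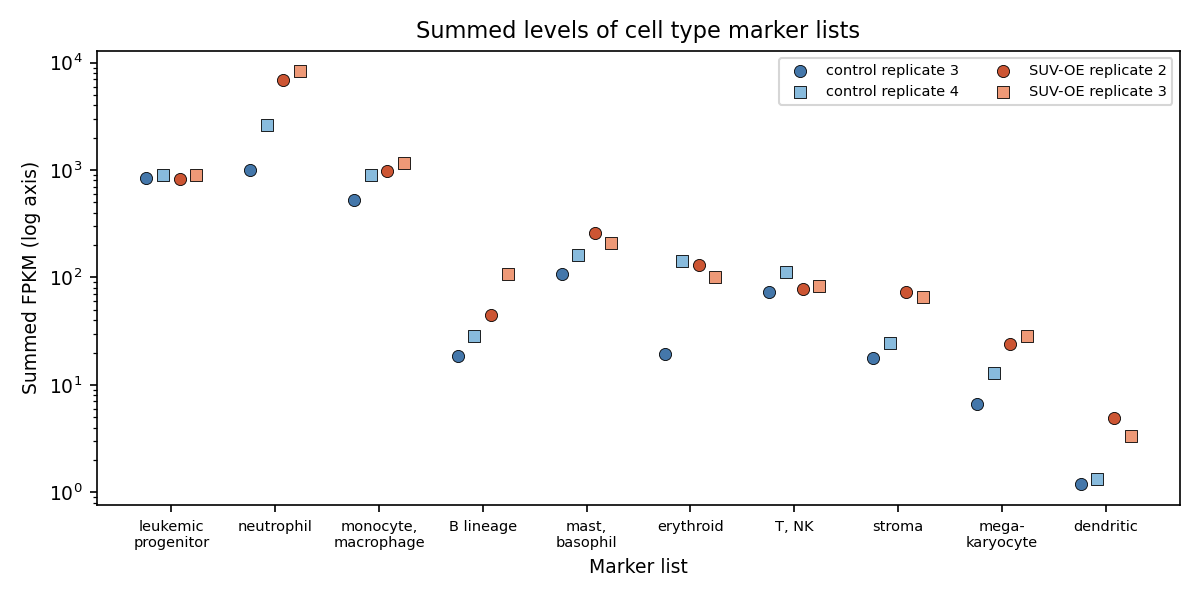
Summed FPKM (log axis) of each marker list in the 4 libraries, 1 point per library, control in blue and SUV-OE in orange. The neutrophil sums are 991 and 2634 in the controls, below 6835 and 8299 under SUV-OE, and the leukemic progenitor sums lie between 830 and 896 in all 4 libraries.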

How the data were processed

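By the study's methods, the authors used the TruSeq RNA v2 kit and paired-end HiSeq sequencing, with TopHat2 alignment to mm10 (CASAVA 1.8 is named in the submitters' processing notes). The deposited table holds the FPKM of 23552 genes in each library, which the methods describe as Cufflinks output, although most values come from whole reads (below), so the tool behind them is not certain. The annotation release and the counting of reads matching several genes are not given in the sources used here. The genes of the cluster and all gene lists were chosen with earlier results of these data known.

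SUV-OE (n = 2) was compared with control (n = 2) on log2(FPKM + 1) with limma 3.58.1 in R 4.3.3 (moderated test with an intensity trend, two-sided, no covariate), over the 13736 genes whose FPKM averaged 0.5 or more. DEGs had an absolute log2 difference of at least 1 and a p-value, adjusted by the Benjamini-Hochberg method, under 0.05. DESeq2, which the authors used, needs counts.

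Depth was recovered from the steps between FPKM values: 78.5% of genes gave whole reads at their GENCODE M21 exon length, within 0.01 reads, and 4873 more at another length. On 1 kb of exons, 3 reads gave 0.154 to 0.178 FPKM. Intervals (exact binomial, 95%) and this limit cover counting error only. limma-voom was run on these reads, for genes with a mean of at least 10. On simulated data, limma recovered 87.31% of 197 seeded changes with 14 false calls, and limma-voom 99.5% of 200 with 6. The simulation used a fixed, small spread within groups and seeded changes only in genes with many reads. Its rates do not carry over to genes with few reads or a wider spread.

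Named genes were, by rule, the cluster, Suv39h1 and its relatives, Kit, tested genes within 1 Mb, DEGs and the 3 highest genes of each pathway list, and the 5 genes nearest to Ifi213. Not all of them are reported. Others were named after their values were seen. Shared stretches were counted in GENCODE M21 transcripts, and promoters came from RefSeq and were aligned with Biopython 1.88. Alternatives were median-of-ratios and quantile scaling, a pseudocount of 0.1, a filter at 1 FPKM or none, no intensity trend and leaving out each library. Some genes are not reported here.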

Additional observations from a re-analysis of the deposited data

How the results depend on the processing

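No paired analysis was possible because control and SUV-OE have just 1 replicate number in common. Every difference of the 9 cluster genes stayed positive under 11 alternatives. Of these, 10 were planned, and limma-voom on recovered reads was chosen after seeing the data. Of 99 values, 82 were within the spread between replicates and 17 beyond it. The filters and the intensity trend cannot change a difference. In the 8 genes whose groups did not overlap, another pseudocount or 1 library left out cannot reverse its sign. These counts were therefore partly fixed in advance and do not test the direction. With a pseudocount of 0.1, the median of the cluster was 1.35 and the DEGs higher in SUV-OE numbered 74. The inflammasome median of 0.02 was 0.14 under quantile normalization and ran from -0.01 without SUV-OE replicate 3 to 0.21 without control replicate 4. With 1 library left out, the DNA sensing median ran from -0.18 without SUV-OE replicate 3 to -0.04 without SUV-OE replicate 2. Under quantile normalization the DNA sensing median was -0.01. The interferon signalling median was 0.15 without control replicate 4. With limma-voom, the median of the cluster was 1.8, the DEGs were 665 (509 higher, 156 lower), those of the pathway lists 14 and those within 1 Mb 2, and the difference of Ifi213 was 8.51. Without a filter, limma gave 0 DEGs (0 higher, 0 lower), 0 in the cluster and 0 in the pathway lists, with 4177 genes at an unadjusted p-value under 0.05. Leaving out any 1 of the 4 libraries gave 0 to 0 DEGs in all genes, in either direction, in the cluster and in the pathway lists, with 1146 to 3895 genes at an unadjusted p-value under 0.05. With 2 libraries against 1 no gene was called, so these fits bear on the size of the differences and not on the calls, and limma-voom was not run without a library. The medians of the shift under both other scalings were under 0.01. With 2 libraries per group, low genes such as Ifi208, Ifi207 and Ifi211 had 1 to 36 reads per library.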
